A study of Mus musculus with 6 samples.

Results

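The cell cycle genes of cardiac side population (SP) cells were examined here as 45 mouse genes, listed by name for the phase in which each acts, of 50600 genes in the count table. They comprised 5 genes of G1, 5 of the G1/S transition, 14 of S phase, 8 of G2 and 13 of mitosis (M). The list was set by gene function and used no measured value, though earlier results of these data were known when it was chosen. In G1, D-type cyclins activate Cdk4 and Cdk6, which phosphorylate the retinoblastoma family and release E2F transcription factors. E2F then drives cyclin E and the genes that license and copy DNA, while cyclin A, cyclin B and Cdk1 carry the cell through G2 into mitosis. Many genes of the last phases are kept silent in resting cells by the DREAM complex and are switched on late in the cycle by B-Myb and FoxM1. Adult heart cells divide rarely, and SP cells, which extrude the Hoechst dye through ABC transporters, are known as mostly resting when taken from the heart.

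RNA was sequenced from freshly sorted SP cells of 2 groups of adult mice. The wt group was strain C57BL/6NRj and the flt3L-/- group, labelled as lacking the Flt3 ligand, was strain C57BL/6Flt3Ltml/mx on a C57BL/6N background, with no treatment named for either group. Each of the 6 libraries pooled the hearts of 4 mice after depletion of cardiomyocytes and erythrocytes. Each of 3 sorting dates gave 1 library of each group, dates 1 and 2 in 2016 and date 3 in 2017. The comparison addresses whether the RNA of the cell cycle differed between SP cells of wt mice and of mice labelled flt3L-/-.

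Libraries held 24370913 to 31145519 counts, so that the floor of 3 counts lay at 0.109 to 0.127 CPM, the unit of counts scaled to library size. *Flt3l* was read at 8.67, 10.8 and 12.1 CPM in the wt libraries of dates 1, 2 and 3 and at 13.6, 12.4 and 14.4 CPM in libraries labelled flt3L-/-. The gene counts thus did not show the loss of the targeted gene, and tell neither whether the reads came from the deleted part nor whether labels were exchanged, which would turn the sign of the differences given here. The dye pump *Abcg2* was present at 147 to 274 CPM and the surface marker *Cd34* at 926 to 1172 CPM. Summed fibroblast markers ran from 10046 to 43790 CPM and summed macrophage markers from 35.4 to 1665 CPM, with no order by group in the sums. Of the fibroblast genes, *Col1a1*, *Col1a2*, *Col3a1* and *Pdgfra* were lower in libraries labelled flt3L-/- at each date. *Gsn*, *Dcn*, *Lum* and *Tcf21* were higher there at date 2. Summed lymphoid and natural killer markers were at 102, 189 and 400 CPM in wt and 59.9, 149 and 46.8 CPM in libraries labelled flt3L-/-. That sum was lower at each date, while *Cd3e* and *Cd3d* were higher at dates 1 and 2. Summed cardiomyocyte markers, 6 of 6 detected in every library, were at 103 to 152 CPM in wt and 158 to 191 CPM in libraries labelled flt3L-/-, and their part in the results was not tested. Nothing in the labels tells whether pools were separate beyond their dates. The p-values set the group difference against the spread left among these 6 libraries after date and group were fitted.

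The promoters of the genes are shown first because their motifs differed in frequency, with overlap, between genes of the early and the late phases. Of the 45 genes, 36 had a RefSeq promoter window on GRCm38.p6, each running from 250 bases before to 50 bases after a start site, in 39 windows in all. The 9 genes without one were *Ccnd1*, *Ccnd2*, *Ccne2*, *Gins2*, *Mcm4*, *Ccna2*, *Foxm1*, *Aurkb* and *Kif20a*. Both strands were searched for the cell cycle genes homology region (CHR) as TTTGAA, for CCAAT, and for an E2F site as TTTCCCGC, TTTCGCGC, TTTGCCGC or TTTGGCGC. The CHR is the element that tethers DREAM and B-Myb complexes, CCAAT binds NF-Y, and E2F sites bind E2F proteins. In the stretches printed here, 5′ to 3′ on the strand of the gene and ending at or near the start site, capitals mark these motifs, and a motif on the opposite strand appears as its reverse complement. All lie outside annotated exons, and that of *Cdc6* lies in an intron of its longer transcripts. They run from G2 and M genes (*Top2a*, *Cdk1*, *Mki67*, *Cdc20*) through S genes (*Mcm6*, *Cdc6*) to a G1 gene with no match (*Cdk4*).
Top2a (G2, chr11:99024190-99024339, minus strand): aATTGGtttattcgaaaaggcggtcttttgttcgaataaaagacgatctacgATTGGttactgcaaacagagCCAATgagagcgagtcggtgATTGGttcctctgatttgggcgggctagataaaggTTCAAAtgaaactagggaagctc
Cdk1 (G2, chr10:69352939-69353062, minus strand): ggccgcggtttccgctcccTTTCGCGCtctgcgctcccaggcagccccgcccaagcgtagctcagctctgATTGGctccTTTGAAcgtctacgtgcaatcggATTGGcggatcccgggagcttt
Mki67 (G2, chr7:135716380-135716579, minus strand): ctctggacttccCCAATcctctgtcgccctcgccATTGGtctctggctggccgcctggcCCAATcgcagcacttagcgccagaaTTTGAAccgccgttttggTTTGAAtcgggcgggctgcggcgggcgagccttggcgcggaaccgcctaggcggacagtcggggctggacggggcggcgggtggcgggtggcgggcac
Cdc20 (M, chr4:118437353-118437493, minus strand): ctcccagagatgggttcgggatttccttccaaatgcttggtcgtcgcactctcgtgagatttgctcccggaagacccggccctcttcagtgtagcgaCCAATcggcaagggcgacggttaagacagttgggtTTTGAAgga
Mcm6 (S, chr1:128359706-128359855, minus strand): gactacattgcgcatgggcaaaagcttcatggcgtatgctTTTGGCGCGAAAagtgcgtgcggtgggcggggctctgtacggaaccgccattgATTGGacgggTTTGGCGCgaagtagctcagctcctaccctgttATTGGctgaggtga
Cdc6 (S, chr11:98908001-98908150, plus strand): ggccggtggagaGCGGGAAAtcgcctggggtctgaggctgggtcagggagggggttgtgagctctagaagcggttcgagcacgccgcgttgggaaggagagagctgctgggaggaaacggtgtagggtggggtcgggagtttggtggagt
Cdk4 (G1, chr10:127063385-127063533, plus strand): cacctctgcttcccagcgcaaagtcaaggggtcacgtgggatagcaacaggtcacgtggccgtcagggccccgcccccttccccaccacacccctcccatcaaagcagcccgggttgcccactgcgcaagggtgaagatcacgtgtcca

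Of 17 windows of G2 and M genes, 13 (76.5%) held the CHR and 15 (88.2%) held CCAAT. Of 22 windows of G1, G1/S and S genes, 2 (9.09%) held the CHR and 13 (59.1%) held CCAAT. Over all 32851 RefSeq windows, the CHR was found in 17.9%, CCAAT in 37.4% and both in 6.95%. The E2F letters went the other way, in 1 of the 17 late windows and in 8 of the 22 early ones (36.4%), against 2.26% of all windows. Within S phase, 6 of 13 windows held an E2F match, among them those of *Mcm3*, *Mcm5*, *Mcm6* and *Cdc6*. In *Mcm6*, 2 E2F matches shared 4 bases in the first run of capitals, and a further match lay 47 bases before the start. In the printed stretch of *Top2a*, a CHR lay 23 bases before the start behind 4 CCAAT boxes, while its whole window held 2 CHR matches and 6 CCAAT boxes. In *Cdk1* the printed stretch held an E2F match, a CHR and 2 CCAAT boxes. A match is a description of the letters and does not show binding in these cells.

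The level of the genes differed by phase, with most G1 genes high, S genes spread over high and low levels, and most G2 and M genes low in SP cells of both groups. On a scale per kilobase of exon (RPKM), the median level was 25.9 for G1, 3.37 for G1/S, 7.56 for S, 0.914 for G2 and 0.584 for M, where the median of the 13475 genes tested was 5.32. The median gene of G1 stood at percentile 85.8 of those genes and the median gene of M at percentile 9.64. *Cdk4*, the kinase partner of D-type cyclins, was highest at 41.0 RPKM. It was followed by *Pcna* at 31.6, the sliding clamp of DNA polymerase, and by *Ccnd3* at 31.3 and *Ccnd2* at 25.9, both D-type cyclins. *Cdk6*, the other kinase of this step, stood apart within G1 at 0.879 RPKM.

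The late genes were at or near the low end of the table. *Cenpf*, a kinetochore protein, was lowest at 0.117 RPKM, and *Ccnb1*, the mitotic cyclin, stood at 0.154 RPKM. The mitotic kinase *Cdk1* was at 0.219 RPKM and the proliferation antigen *Mki67* at 0.326 RPKM. Some late genes stood above their group. *Hmgb2*, a chromatin protein also used outside division, was at 16.9 RPKM, *Cdc20*, the activator of the anaphase-promoting complex, at 10.9, and *Cenpa*, the centromeric histone, at 4.38. In bulk RNA, few cells with much of a transcript and many cells with little of it cannot be told apart.

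**Figure D1:**
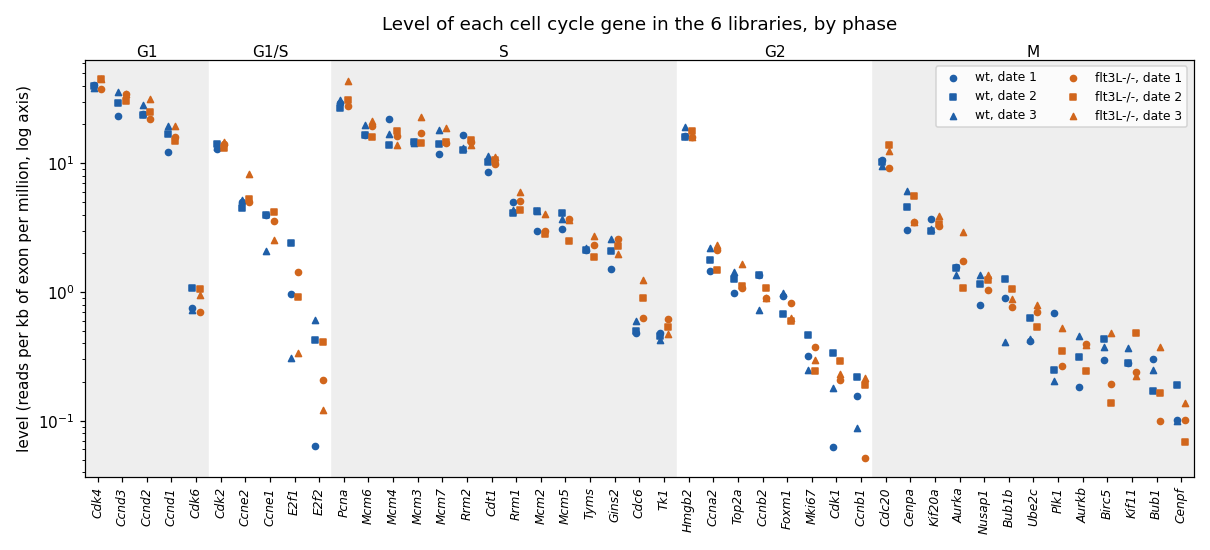
Level of each of the 45 cell cycle genes in the 6 libraries, in RPKM on a log axis, grouped by phase and ordered within it by mean level. Colour gives the group and shape the sorting date. The points run from 44.9 for *Cdk4* in G1 to 0.0518 for *Ccnb1* in G2, each in 1 library, and the 2 colours overlap for all genes but *Cdc6*.

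The balance of G1 to M was similar between libraries. Summed CPM of the 5 G1 genes was 7.82 to 10.1 times that of the 13 M genes. The wt libraries were at 8.64, 8.47 and 9.23 and the libraries labelled flt3L-/- at 10.1, 7.82 and 9.56. These sums are not scaled by gene length or number, so the ratio serves to compare libraries and not phases. Per kilobase, *Top2a*, which untangles replicated DNA, was 4.08% to 5.29% of *Ccnd2*. Low genes also varied most between libraries. The fold between the highest and the lowest library had a median of 1.52 in G1, 2.01 in G1/S, 1.56 in S, 1.77 in G2 and 2.46 in M, beside 1.72 over all genes tested. For the 23 genes above 10 CPM it was 1.52, and for the 22 at or below 2.52.

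No cell cycle gene passed the test between the groups. Of the 45 genes, 44 passed the filter of more than 1 CPM in at least 2 libraries and 0 had an adjusted p under 0.05, with 0 genes (0%) called in the whole table (edgeR quasi-likelihood test with sorting date in the model and Benjamini-Hochberg adjustment over 13475 genes). Adjusted p ran from 0.973 to 0.992 over the 44 genes. At an unadjusted p under 0.05, edgeR found 0 of the 44 genes, beside 484 genes (3.59%) of the whole table, of which 149 (1.11%) were above and 335 (2.49%) below wt. DESeq2 called 21 genes (0.156%), among them 0 cell cycle genes, and at an unadjusted p under 0.05 it found 0 of the 44 genes beside 641 (4.76%). Differences of the libraries labelled flt3L-/- from wt ran from -0.61 for *Birc5* to 0.76 for *Cdc6* on the log2 scale. Their median was 0.086, with 30 of 44 (68.2%) above 0, beside a median of -0.00027 and 50% above 0 in the whole table. The dates did not share a sign: the median was 0.12, -0.023 and 0.18 at dates 1, 2 and 3. In the whole table it was 0.040, 0.0035 and 0.014. By phase, the median difference was 0.097 in G1, 0.066 in G1/S, 0.11 in S, -0.050 in G2 and 0.15 in M.

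The precision of the comparison depended on the level of the gene. The 95% interval of the difference stayed within 2-fold either way for 27 of 44 genes (61.4%), beside 65.7% of the whole table. This held for 5 of 5 genes in G1, 3 of 5 in G1/S, 12 of 14 in S, 3 of 7 in G2 and 4 of 13 in M. It held for 23 of 23 genes above 10 CPM on average, and for 4 of 21 tested at or below it. For the other 9 mitotic genes a 2-fold difference lay inside the interval and was not detectable here. The median standard error was 0.16 in G1 and 0.43 in M on the log2 scale.

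**Figure D2:**
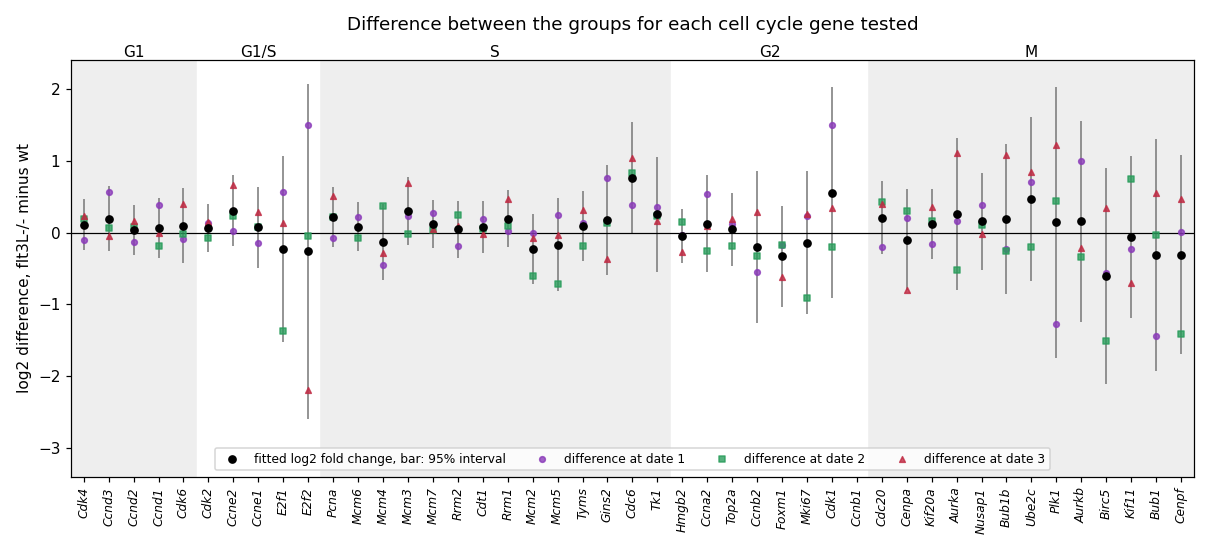
Difference between the libraries labelled flt3L-/- and wt for each cell cycle gene on the log2 scale, with the fitted value and its 95% interval in black and the difference at each of the 3 dates in colour. *Ccnb1* was not tested and has no value. Intervals are short for the G1 genes and most S genes and long for *E2f2*, *Cdk1* and the mitotic kinase *Plk1*, and all cross 0.

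In G1, *Ccnd2*, *Ccnd3* and *Cdk4* had the highest CPM of the cell cycle genes, and no G1 gene passed the test. *Ccnd1* (ENSMUSG00000070348, chromosome 7, 144929931 to 144939925, minus strand) was at 57.9, 79.5 and 92.3 CPM in wt and at 75.3, 69.6 and 91.7 CPM in libraries labelled flt3L-/- at dates 1, 2 and 3. The groups overlapped throughout, and the lowest library was wt of date 1. The log2 difference was 0.059 (SE 0.16, edgeR adjusted p = 0.981), with an interval from 0.779-fold to 1.39-fold. *Ccnd1* shares 23.4% of its exon bases with the neighbouring gene *LTO1*, and reads without strand cannot separate such pairs.

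*Ccnd2* was at 229, 225 and 266 CPM in wt and 209, 237 and 297 CPM in the other group. Both groups were highest at date 3 and overlapped, with a log2 difference of 0.035 (SE 0.13). *Ccnd3* was at 206, 256 and 312 CPM in wt and 304, 268 and 302 CPM in libraries labelled flt3L-/-. Here the low library was wt of date 1, and the difference of 0.19 (SE 0.17) was 0.0085 without date 1. *Cdk4*, at 132, 128 and 124 CPM in wt and 123, 146 and 146 CPM in the other group, varied by only 1.185-fold over the 6 libraries. It shares 19.7% of its exon bases with *Tspan31*.

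At the G1/S transition, *Cdk2*, the kinase bound by cyclins E and A, was at 80.1, 87.0 and 82.9 CPM in wt and 88.03, 82.3 and 91.4 CPM in libraries labelled flt3L-/-. It was the steadiest gene of this group, with an interval of the difference from 0.832-fold to 1.32-fold. *Ccne2*, a cyclin E, was at 17.4, 15.8 and 18.1 CPM in wt and 17.6, 18.6 and 28.7 CPM in the other group. One library, that labelled flt3L-/- of date 3, stood above the others, and the difference of 0.30 (SE 0.19, edgeR adjusted p = 0.973) did not pass. Of the exon bases of *Ccne2*, 17.4% are shared with *Ints8*. *Ccne1*, the other cyclin E, was at 10.5, 10.5 and 5.51 CPM in wt and 9.47, 11.1 and 6.77 CPM in libraries labelled flt3L-/-, and both groups were lowest at date 3.

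The E2F activators had the widest span over libraries of the cell cycle genes, on few counts. Libraries held 26 to 195 counts of *E2f1* and 8 to 80 counts of *E2f2*, so counting error is part of these spans. *E2f1* was at 3.03, 7.57 and 0.968 CPM in wt and 4.52, 2.89 and 1.07 CPM in the other group, a 7.81-fold span over libraries. *E2f2* was at 0.311, 2.06 and 2.98 CPM in wt and 1.02, 1.99 and 0.594 CPM, a 9.58-fold span. The sign of its difference turned between dates, and its interval ran from 0.166-fold to 4.18-fold. Beside *E2f2*, the summed level of 9 macrophage markers was 35.4, 590 and 1665 CPM in wt and 282, 947 and 93.2 CPM in libraries labelled flt3L-/-, with 8 of 9 markers detected in every library. Both were lowest in wt of date 1 and highest in wt of date 3. *Lyz2* made up most of the marker sum, at 1527 CPM in wt of date 3. *Cd68*, *Adgre1*, *Csf1r* and *Fcgr1* were also highest in wt of date 3. *C1qa*, *C1qb*, *C1qc* and *Mrc1* were highest in the library labelled flt3L-/- of date 2. The part of macrophage RNA in the *E2f2* reads was not tested.

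In S phase, *Cdc6*, which loads the MCM helicase at origins, came nearest to the threshold of the test. It had 65, 67 and 84 counts in wt and 91, 110 and 164 counts in libraries labelled flt3L-/-, or 2.53, 2.60 and 3.13 CPM and 3.31, 4.67 and 6.49 CPM. All libraries labelled flt3L-/- were above all wt libraries, as for 3.53% of the genes of the whole table (2.92% lay all below), and *Cdc6* was the only cell cycle gene with groups apart in either direction. The differences by date were 0.38, 0.83 and 1.03 on the log2 scale. The fitted difference was 0.76 (SE 0.30, edgeR adjusted p = 0.973), with an interval from 0.996-fold to 2.90-fold. Its promoter stretch holds 1 E2F match, 138 bases before the start.

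Other licensing and replication genes lay nearer to 0. *Mcm6*, a subunit of the MCM helicase, was at 77.7, 77.9 and 93.1 CPM in wt and 90.4, 74.1 and 99.6 CPM in the other group, with a log2 difference of 0.081 (SE 0.13). *Pcna* was at 70.2, 64.6 and 73.9 CPM in wt and 66.5, 74.8 and 105 CPM, with the library labelled flt3L-/- of date 3 as the one high library and a difference of 0.21 (SE 0.16). The helicase subunits did not share a sign: *Mcm3*, *Mcm6* and *Mcm7* had fitted differences of 0.30, 0.081 and 0.12, and *Mcm2*, *Mcm4* and *Mcm5* of -0.23, -0.13 and -0.17. The 2 subunits of ribonucleotide reductase, *Rrm1* and *Rrm2*, had differences of 0.19 and 0.046, and the thymidylate genes *Tyms* and *Tk1* of 0.091 and 0.26. *Cdt1*, the partner of *Cdc6* in licensing, had a difference of 0.076. *Gins2*, of the replicative helicase, shares 67.3% of its exon bases with *Gse1*, so that its level is uncertain.

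Among all cell cycle genes tested, 5 were higher in the libraries labelled flt3L-/- at each of the 3 dates (11.4%, beside 14.2% of the whole table), namely *Ccne2*, *Cdc6*, *Mcm7*, *Rrm1* and *Tk1*. At each date 2 were lower (4.55%, beside 11.5%), namely *Mcm2* and *Foxm1*. These shares were not above those of the whole table.

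**Figure D3:**
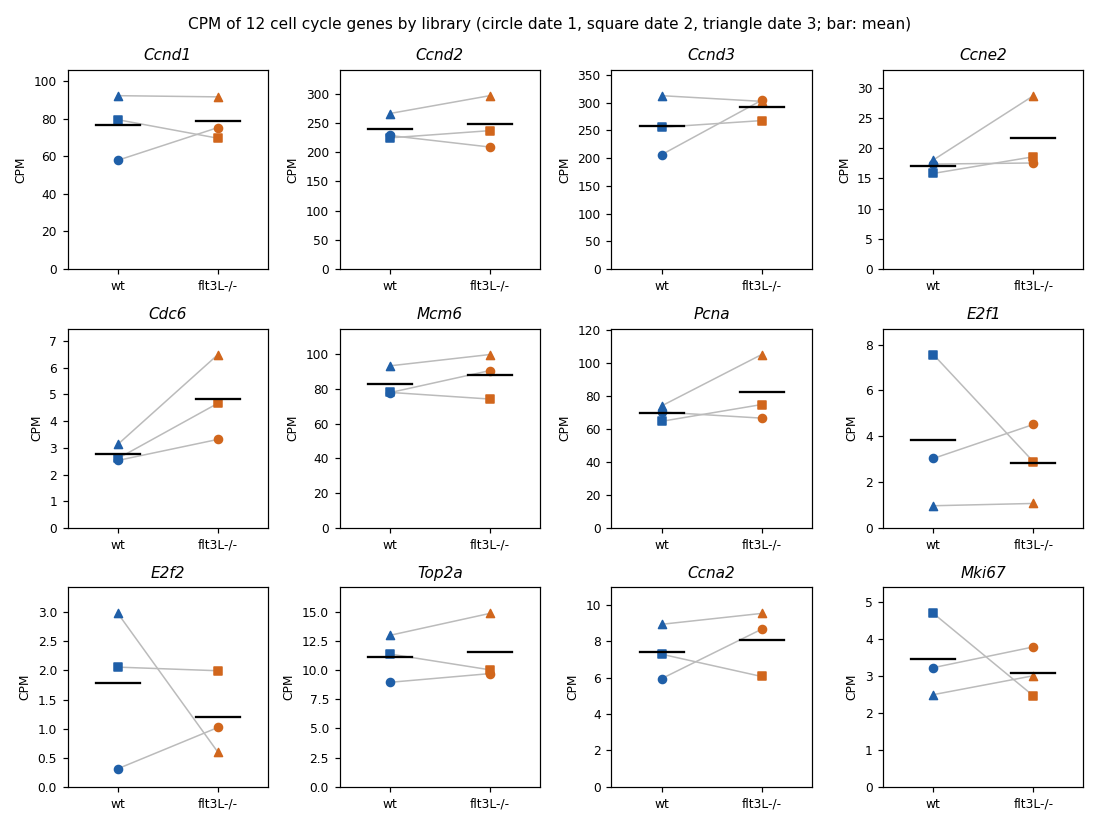
CPM of 12 cell cycle genes in each library, with wt libraries and libraries labelled flt3L-/- of the same sorting date joined by a line, dates shown by shape and a bar at the mean of each group. The lines of *Cdc6* all slope upward, from 2.53, 2.60 and 3.13 CPM in wt to 3.31, 4.67 and 6.49 CPM, while those of *E2f1*, *E2f2*, *Mki67* and *Ccna2* cross.

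Of the G2 genes, *Top2a* (ENSMUSG00000020914, chromosome 11, 98992943 to 99024189, minus strand) was at 8.94, 11.4 and 13.0 CPM in wt and 9.69, 10.01 and 14.8 CPM in libraries labelled flt3L-/-. Both groups were highest at date 3, and the difference of 0.043 (SE 0.20, edgeR adjusted p = 0.988) had an interval from 0.724-fold to 1.47-fold. *Ccna2*, the cyclin of S and G2, was at 5.95, 7.29 and 8.94 CPM in wt and 8.67, 6.07 and 9.54 CPM. The groups overlapped, with a difference of 0.12 (SE 0.26) and an interval from 0.680-fold to 1.75-fold. *Ccna2* shares 12.5% of its exon bases with *Exosc9*.

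*Mki67* was at 3.23, 4.70 and 2.495 CPM in wt and 3.79, 2.46 and 3.01 CPM in libraries labelled flt3L-/-. The highest and the lowest library were both of date 2, and the difference of -0.14 (SE 0.38) had an interval from 0.455-fold to 1.81-fold. *Foxm1*, the factor that activates G2 and M genes, was at 5.33, 3.88 and 5.66 CPM in wt and 4.70, 3.44 and 3.64 CPM, with a difference of -0.33 (SE 0.27). It was lower at each date, but the groups overlapped. *Hmgb2* was at 49.1, 47.8 and 57.9 CPM in wt and 48.1, 53.0 and 48.1 CPM, with a difference of -0.050 (SE 0.15). *Ccnb1* did not pass the filter, with 17, 24 and 10 counts in wt and 6, 19 and 23 counts in the other group, and was not tested.

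Of the mitotic genes, *Cdc20* and *Cenpa* were the most abundant. *Cdc20* was at 19.7, 19.0 and 17.7 CPM in wt and 17.1, 25.7 and 23.3 CPM in libraries labelled flt3L-/-, with a difference of 0.21 (SE 0.20). *Cenpa* was at 17.7, 26.7 and 35.9 CPM in wt and 20.4, 32.8 and 20.5 CPM, a difference of -0.10 (SE 0.27). Its groups overlapped, and date 3 alone had the lower value in the library labelled flt3L-/-. The kinases *Aurka*, *Aurkb* and *Plk1* had fitted differences of 0.26, 0.15 and 0.15, and the spindle checkpoint genes *Bub1* and *Bub1b* of -0.31 and 0.19. *Birc5*, the survivin of the chromosomal passenger complex, had the lowest difference at -0.61, on 11 to 41 counts a library and with an interval from 0.231-fold to 1.87-fold. *Ube2c*, the ubiquitin-conjugating enzyme of the anaphase-promoting complex, shares 22.8% of its exon bases with *Tnnc2*, and the kinesin gene *Kif20a* 29.3% with *Cdc23*.

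The summed level of each phase gave the same picture. G1 genes summed to 635, 703 and 805 CPM in wt and 721, 735 and 850 CPM in libraries labelled flt3L-/-, which gave ratios of 1.14, 1.05 and 1.06 at dates 1, 2 and 3. S genes summed to 519, 495 and 556 CPM and 536, 512 and 640 CPM, with ratios of 1.03, 1.03 and 1.152. G2 genes gave ratios of 1.03, 0.990 and 0.914, and M genes of 0.975, 1.13 and 1.02. The ratios were above 1 at each date for G1 and S and on both sides of 1 for G1/S, G2 and M, and the groups overlapped in each phase. Sums follow the most abundant genes, and *Ccnd3* alone went from 206 to 304 CPM at date 1. By gene, 0 of 5 in G1 were higher at all 3 dates, and their median log2 difference at date 1 was -0.088. In S, 4 of 14 were higher and 1 was lower at all 3 dates.

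**Figure D4:**
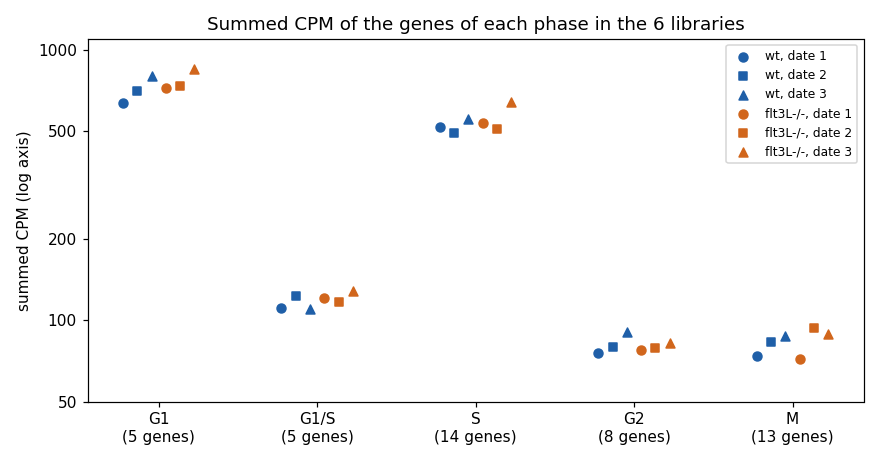
Summed CPM of the genes of each phase in the 6 libraries on a log axis, with colour for the group and shape for the sorting date. Sums are not scaled by gene length or number and compare libraries within a phase. The 2 groups overlap in every phase, as in G2, where wt runs from 75.6 to 90.3 CPM and the libraries labelled flt3L-/- from 77.5 to 82.6 CPM.

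Sorting date was tested in the same fit. Of the 44 genes, 0 had an adjusted p under 0.05 for date, with 0 (0%) in the whole table by edgeR and 403 genes (2.99%) by DESeq2, and 1 had an unadjusted p under 0.05 by either tool (2.27%, beside 8.28% of the whole table by edgeR and 11.8% by DESeq2). That gene was *E2f1* (edgeR adjusted p = 0.598), lowest at date 3 in both groups. The next were *Mcm7* and *Ccne1*. *Mcm7* was at 52.6, 63.0 and 80.3 CPM in wt and 63.6, 64.7 and 83.2 CPM in libraries labelled flt3L-/-, highest at date 3 in both.

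The wider machinery was read from 4 lists that hold none of the 45 genes. Replication factors, of which 37 of 38 were tested, had a median difference of 0.045, with 0 called. At an unadjusted p under 0.05, edgeR found 1 of them, beside 3.59% of the whole table. That was *Pola2*, a polymerase subunit of the DNA polymerase alpha-primase complex. It was at 52.1, 64.5 and 65.2 CPM in wt and 78.9, 73.8 and 89.9 CPM in libraries labelled flt3L-/- (log2 difference 0.42, SE 0.14, edgeR adjusted p = 0.973). Its groups did not overlap, with all libraries labelled flt3L-/- above all wt libraries, as for 2 of the 37 genes (3.53% of the whole table). *Pole*, the catalytic subunit of polymerase epsilon, came next by p, at 2.57, 1.75 and 2.42 CPM in wt and 0.838, 2.08 and 0.989 CPM in the other group, with a difference of -0.88 (SE 0.53).

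Mitotic genes beyond those listed, 44 of 47 tested, had a median difference of 0.012, with 0 called and 0 at an unadjusted p under 0.05. *Dlgap5*, a spindle protein, was at 1.28, 0.854 and 0.894 CPM in wt and 1.75, 2.12 and 1.46 CPM in the other group (difference 0.82, SE 0.42). *Bub3*, of the spindle checkpoint, was at 75.7, 82.1 and 81.7 CPM in wt and 86.6, 84.1 and 109 CPM (difference 0.22, SE 0.14). Neither passed the test, and neither had groups that overlapped. All libraries labelled flt3L-/- lay above all wt libraries for 2 of the 44 genes, beside 3.53% of the whole table. E2F, Rb-partner and MuvB regulators were listed together with *Myc*, *Cdc25a*, *Skp2*, *Fzr1*, *Cdk7*, *Mnat1* and the cyclins *Ccna1*, *Ccnb3* and *Ccnh*. Of the 23 genes of this list, 20 were tested, with a median difference of 0.13 and 0 called. At an unadjusted p under 0.05, edgeR found 1 of the 20, beside 3.59% of the whole table. That was *E2f7*, a repressor of E2F targets, at 27.4, 24.7 and 32.7 CPM in wt and 42.4, 26.7 and 59.4 CPM in the other group (difference 0.54, SE 0.20, edgeR adjusted p = 0.973). *Lin9*, of the MuvB core, was at 4.59, 6.25 and 5.66 CPM in wt and 6.85, 8.36 and 8.59 CPM (difference 0.53, SE 0.23). Its groups were apart, as for 2 of the 20 genes in that direction (3.53% of the whole table). Genes named from these lists were the 2 of each with the smallest p, a choice that favours groups apart.

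On the list of cycle inhibitors, *Cdkn1a* and *Cdkn1c* stood far above the cyclins and kinases, but the list as a whole did not. Its median was 7.94 RPKM, with *Cdkn1b* at 1.75 RPKM and *Cdkn2a* lowest at 0.342 RPKM. *Cdkn1a*, the p21 inhibitor of cyclin-dependent kinases, was at 833, 641 and 842 CPM in wt and 1055, 701 and 1016 CPM in libraries labelled flt3L-/-, with a difference of 0.25 (SE 0.14). Per kilobase *Cdkn1a* stood at 239 RPKM and *Cdkn1c* at 188 RPKM, above the 41.0 RPKM of *Cdk4*. *Cdkn1c*, the p57 inhibitor, ran from 319 to 459 CPM in all, with no order by group, and shares 30.7% of its exon bases with *Gm44732*. *Rbl2*, the p130 pocket protein of DREAM, was at 137, 103 and 121 CPM in wt and 96.4, 107 and 79.2 CPM in the other group (difference -0.36, SE 0.18), and the groups overlapped. Of the 11 inhibitors, 10 were tested, 0 were called and 0 had an unadjusted p under 0.05, and their median difference was 0.12.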

How the data were processed

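Unstranded SMART-Seq v4 libraries were sequenced as single reads. The authors mapped them to mm10 with STAR 2.5.2a, with equally good positions chosen at random, and counted reads starting in Ensembl exons with QuasR. The deposited values are raw counts per gene, with no normalization. *Ccnd3*, *Pcna*, *Tyms*, *Ccnb1* and *Ccnb2* have annotated pseudogenes that could share reads, so their levels are uncertain.

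The filter left 13475 protein-coding genes, each above 1 CPM in 2 or more libraries, and these were scaled by TMM. Group and sorting date were fitted with edgeR 4.0.16 (quasi-likelihood F test, legacy setting, in R 4.3.3), and p-values were adjusted by the Benjamini-Hochberg method. DESeq2 1.42.0, other scalings and filters, all biotypes, a fit without date and leaving out each date were alternatives. CPM used TMM-scaled library sizes, and RPKM divided CPM by the length of all exons of a gene (GENCODE, GRCm38). Differences at 1 date used a prior count of 2. Intervals are 95% intervals from the fitted standard error, and the floor of 3 counts covers counting error only. The scripts were tested on simulated data. Genes, lists and motifs were chosen with earlier results of these data known.

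Named with full values were *Top2a*, *Ccna2*, *Ccnd1*, *Mki67*, per phase the 2 highest genes and the 1 with the smallest genotype p, the 3 with the smallest date p, and genes below the filter, plus 2 per further list by p. *Cdk4*, *E2f2* and *Birc5* and the other genes given with single values were added after their values were seen. The sorting date pairs the libraries in the labels, and the deviations of same-date libraries from their group means correlated at 0.180, 0.104 and 0.116 over 13475 genes, while pairs of different dates ran from -0.354 to 0.247.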

Additional observations from a re-analysis of the deposited data

How the results depend on the processing

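No cell cycle gene was called between the groups under any of the 11 alternatives, or by sorting date under the 10 that hold a date term. The count of genes called in the whole table went from 0 to 21 by genotype and from 0 to 403 by date when DESeq2 replaced edgeR, and leaving out each date in turn gave 0 for genotype and 0 to 112 for date. Without the replicate block of sorting date, 262 genes in the whole table had an unadjusted genotype p under 0.05 in place of 484, and 1 cell cycle gene had one in place of 0. The block changed no other call. That gene was *Cdc6* (edgeR adjusted p = 0.998), which was also the 1 gene found with the newer edgeR setting (adjusted p = 0.961) and with all biotypes (adjusted p = 0.983). Its log2 difference stayed between 0.62 and 0.95 in 11 of 11 alternatives, and it did not reach an unadjusted p under 0.05 in the others. For date, 2 cell cycle genes had an unadjusted p under 0.05 with library size only and with all biotypes, in place of 1.

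Leaving out each date gave 249 to 980 genes at an unadjusted genotype p under 0.05, with 980 without date 2, and the G1/S median ran from 0.027 to 0.22, the latter without date 2. The median of all cell cycle genes ran from 0.039 to 0.14, that of G1 from 0.045 to 0.14, of S from 0.056 to 0.16, of G2 from -0.059 to -0.013 and of M from 0.075 to 0.15. Single differences ran from 0.0085 to 0.31 for *Ccnd3*, 0.12 to 0.45 for *Ccne2*, 0.066 to 0.36 for *Pcna* and 0.075 to 0.41 for *Cdc20*. Over the dates left out, the log2 difference took both signs for 9 of the genes chosen by rule for full values. It ran from -0.034 to 0.13 for *Top2a*, -0.085 to 0.30 for *Ccna2*, -0.10 to 0.16 for *Ccnd1*, -0.35 to 0.23 for *Mki67*, -0.027 to 0.12 for *Ccnd2*, -0.17 to 0.059 for *Hmgb2*, -0.33 to 0.25 for *Cenpa*, -0.67 to 0.35 for *E2f1* and -0.034 to 0.19 for *Ccne1*. The sign turned without date 1 for *Ccna2* and *Ccnd1*, without date 2 for *Mki67*, *E2f1* and *Ccnd2* (-0.0080), and without date 3 for *Top2a*, *Hmgb2*, *Cenpa*, *Ccne1* and *Ccnd2*. *Ccnd2* was also at -0.0045 with library size only. Other genes given above also took both signs over all settings, among them *E2f2* (-1.14 to 0.72), *Aurka* (-0.18 to 0.62) and *Bub1* (-0.48 to 0.29). The same held for *Bub1b* (-0.25 to 0.41), *Mcm4* (-0.39 to 0.039) and *Mcm5* (-0.38 to 0.083). None of these passed the test in either direction by edgeR. Without the 8 genes that share over 10% of their exon bases with another gene, an alternative added after seeing the data, the G1/S median was -0.082. The cause of these changes was not tested. Low counts limit the G2 and M genes most.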
